A study of Homo sapiens with 58 samples.

Results

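The peak table names 18 of its 387214 HuR binding peaks for LINC00910 or CROCC, 6 for LINC00910 (ENSG00000188825) and 12 for CROCC (ENSG00000058453). All peaks carrying either gene name were taken, whatever their values. The 2 gene names were selected on their lower summed HuR signal in arsenite than in mock nuclei, so the nuclear values are given below as a description without a test. Together the 18 peaks held 1545 tags in 58 libraries and 658 in the fraction libraries, 440 of them in LINC00910 peaks and 218 in CROCC peaks. Only 8 of the 18 peaks reached 20 tags in the fraction libraries, 3 named for LINC00910 and 5 for CROCC.

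The names did not match the positions well. By the RefSeq annotation of GRCh38.p14, only 4 of the 18 peaks lie inside the gene whose name they carry, 2 for each gene. The peaks with the largest nuclear difference for each name lie outside it, at genes of small nuclear RNAs (snRNAs). The values below are therefore HuR signal at peaks named LINC00910 and CROCC, and not levels of the LINC00910 or CROCC transcripts.

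The study measured RNA bound by HuR, the product of ELAVL1, in cells of the human liver carcinoma line Huh-7.5, by crosslinking, immunoprecipitation and sequencing (CLIP-seq). Cells were mock treated or given sodium arsenite at 0.5 mM for 45 min, an oxidative stress that makes cells assemble stress granules, and were crosslinked with UV light of 254 nm at 400 and then 200 mJ/cm2. The fraction libraries came from WT cells without an APEX reaction, separated into nuclei and cytoplasm, with 3 mock and 3 arsenite libraries of each. The other libraries came from cells carrying APEX, a peroxidase that biotinylates its surroundings, directed to the nucleus (APEX-NLS), the cytoplasm (APEX-NES) or the stress granule protein G3BP1 (APEX-G3BP1). All of these cells, mock cells included, received biotin phenol at 0.5 mM for 30 min and hydrogen peroxide at 1 mM for 1 min. Input libraries were made without the streptavidin capture, 2 mock and 2 arsenite for NLS, 2 and 2 for NES, and 4 and 5 for G3BP. Enriched libraries included the capture, 4 and 4 for NLS, 4 and 4 for NES, and 6 and 7 for G3BP. All fraction libraries share 1 library set and the APEX libraries come from 3 others, so fractionation cannot be told apart from the set. The sources used here do not say whether the APEX lines are single clones.

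LINC00910 is a long noncoding RNA gene, and CROCC encodes rootletin, the structural protein of the ciliary rootlet. HuR binds U-rich and AU-rich RNA, is mostly nuclear in unstressed cells and moves in part to the cytoplasm under stress. The snRNAs that lie beside these peaks are short noncoding RNAs of the spliceosome: U1 pairs with the 5′ splice site, and U2 with the branch site of an intron. Most of them are made by RNA polymerase II as precursors that extend past the mature 3′ end. The Integrator complex cuts these precursors, and they pass through the cytoplasm for assembly with Sm proteins and for trimming before they return to the nucleus. U1 and U2 genes have many near-identical copies, so a tag inside one of them cannot be assigned to 1 copy with certainty.

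Values are in CPM, the tags of a peak per 1000000 tags of the library total used by the authors. Differences are arsenite minus mock on the log2(value + 2.28 CPM) scale, given with their standard error (SE), which understates the change of weak peaks. Tags in peaks ranged from 235471 to 673322 per fraction library, from 1353 to 484305 per input library and from 519 to 86419 per enriched library. HuR signal is a share of bound tags, so fewer RNA molecules, less HuR on each and more tags elsewhere in the library cannot be told apart. Summed CPM of 6 hepatocyte marker genes also differed by treatment in the fraction libraries. It was 1069 to 1154 in mock nuclei and 625 to 657 in arsenite nuclei, and 1732 to 2468 in mock cytoplasm and 893 to 1007 in arsenite cytoplasm. Of the 6, 5 had a tag in all 12 fraction libraries, and their part in the results below was not tested. APOA1 and TTR, which complete the marker list, were not among the gene names of the table. Of 5 markers of other cell types, COL1A1, COL1A2 and CD3E were also not among the gene names. The 2 present, PTPRC and PECAM1, summed to 0 to 5.46 CPM.

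In the mock fraction libraries, LINC00910 signal came mainly from 2 peaks 49 nt apart on the minus strand of chromosome 17, chr17:43368057-43368077 and chr17:43368008-43368028. Taken as one, they were 9.67-fold weaker after arsenite in nuclei and 17.5-fold weaker in cytoplasm. The table annotates them under LINC00910, while RefSeq places them 1768 nt outside LINC00910 (chr17:43369845-43388898) and inside LOC124904147, an unnamed snRNA gene at chr17:43367899-43368087 that is 189 nt long. The table and RefSeq both use GRCh38.p14, and whether the table counts positions from 0 or 1 is not stated. Read along the minus strand of the peaks, they start 10 and 59 nt from the 5′ end of that gene.

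The peak nearest the 5′ end, chr17:43368057-43368077, had 27.7, 21.8 and 25.1 CPM in mock nuclei (19, 24 and 26 tags). In arsenite nuclei it had 2.40, 4.80 and 1.73 CPM (3, 6 and 2 tags). No arsenite nucleus reached the lowest mock value. The mean went from 24.9 to 2.98 CPM (n = 3 and 3), a log2 difference of -2.40 ± 0.30 (SE). In cytoplasm the peak had 19.1, 35.6 and 36.9 CPM in mock and 2.89, 1.71 and 3.48 CPM in arsenite libraries, again without overlap. The cytoplasmic difference was -2.69 ± 0.31 (SE), with a limma adjusted p of 0.00655.

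The peak 49 nt further in, chr17:43368008-43368028, had 27.7, 19.1 and 17.4 CPM in mock nuclei and 0.80, 2.40 and 1.73 CPM in arsenite nuclei. Its nuclear log2 difference was -2.59 ± 0.30 (SE), and the groups did not overlap. In cytoplasm it had 24.5, 39.7 and 49.6 CPM in mock and 0.72, 2.27 and 0.70 CPM in arsenite libraries. That difference was -3.49 ± 0.32 (SE), with a limma adjusted p of 0.00258. These were the only 2 of the 11 tested peaks of both names that passed in cytoplasm, where 0.52% of all 193897 tested peaks passed as lower and 0.24% as higher. Both calls depended on single libraries. Without cytoplasmic mock replicate 2 the adjusted p was 0.245 for each peak, and without mock replicate 3 it was 0.138 for the first and 0.0744 for the second.

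Pooled over the 3 libraries of a group, the 2 peaks together held 127 tags in mock nuclei and 17 in arsenite nuclei, and 197 and 18 in cytoplasm. The 95% interval of the fold, which covers counting error only, was 5.81 to 17.1 in nuclei and 10.8 to 30.1 in cytoplasm. The 4 other LINC00910 peaks were weak and showed no such difference in nuclei, with 15 mock and 25 arsenite tags and a ratio of 1.29 (0.653 to 2.63). In cytoplasm those 4 had 22 and 19 tags, a ratio of 0.541 (0.277 to 1.05). The nuclear difference under the name LINC00910 therefore lay in the pair of peaks inside LOC124904147.

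**Figure D1:**
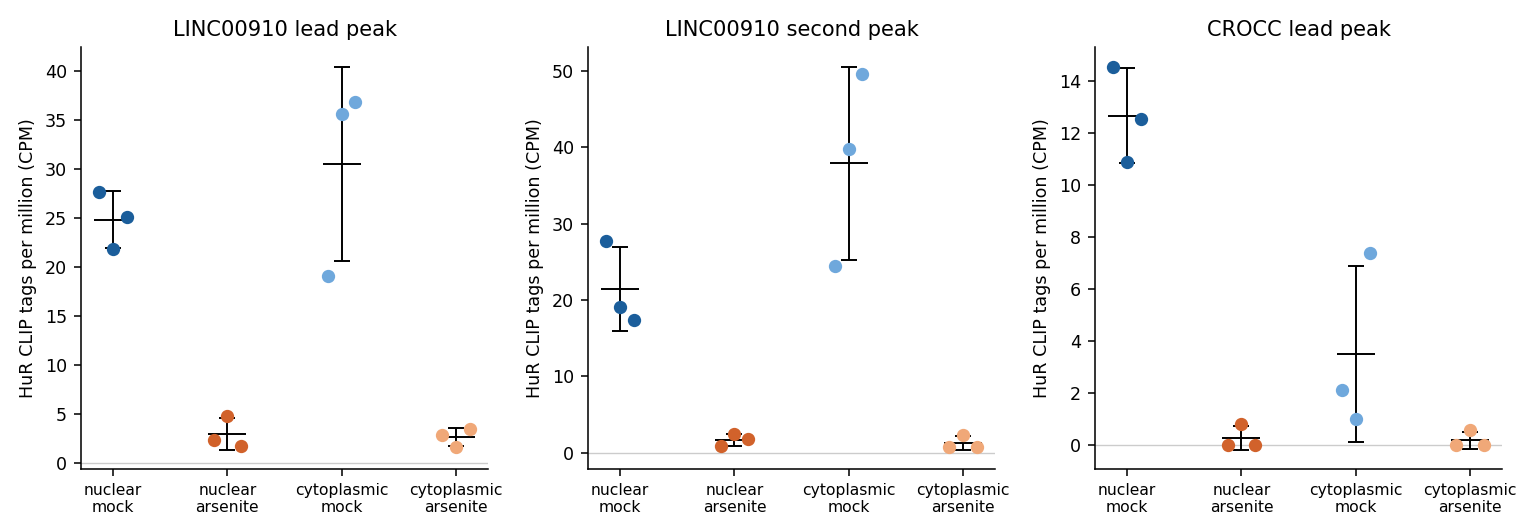
HuR signal in CPM (y axis) of the 2 leading LINC00910 peaks and of the leading CROCC peak in each fraction library; points are single libraries, dashes the mean of 3 and error bars the SD. For the LINC00910 peaks every arsenite point lies below every mock point in nuclei and in cytoplasm, while the CROCC peak was already low in mock cytoplasm.

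Of the 4 weaker LINC00910 peaks, 2 lie inside RNU2-4P, a U2 pseudogene at chr17:43387229-43387417 within RefSeq LINC00910. The stronger, chr17:43387369-43387389, had 2, 3 and 5 tags in mock nuclei and 7, 5 and 4 in arsenite nuclei, which overlap (log2 difference 0.21). In cytoplasm it had 4, 6 and 4 mock tags and 0, 4 and 5 arsenite tags, a difference of -0.86 ± 0.36 (SE) with a limma adjusted p of 0.218. The weaker RNU2-4P peak had no tag in mock nuclei and 6 in arsenite nuclei. With no mock tag there, the weaker peak met the nuclear filter only through its arsenite libraries. For the stronger peak the pooled nuclear ratio of arsenite to mock, in CPM, was 1.24. Its counting interval, 0.527 to 3.05, includes 1. Under 1 gene name, the pair in LOC124904147 was lower in arsenite nuclei, while no direction was settled for the pair in RNU2-4P. The remaining 2 peaks held 6 to 16 fraction tags each.

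Among the CROCC peaks the largest nuclear difference was at chr1:16896221-16896241 on the plus strand, which held 35 of the 106 CROCC tags in mock nuclei. The peak had 10, 12 and 13 tags in mock nuclei (14.6, 10.9 and 12.6 CPM) and 0, 1 and 0 tags in arsenite nuclei. The nuclear log2 difference was -2.56 ± 0.30 (SE) without overlap. Pooled, 35 mock tags stood against 1 arsenite tag, a ratio of 45.3 whose counting interval runs from 7.62 to 1840. In cytoplasm the peak had 2, 1 and 7 mock tags and 0, 1 and 0 arsenite tags. In CPM the lowest mock library (1.02) lay above the highest arsenite library (0.57), but the difference of -1.08 ± 0.39 (SE) did not pass (limma adjusted p = 0.128). With 1 arsenite tag, the peak met the filter only through its mock libraries. The table calls this peak intronic in CROCC, but it lies 17864 nt before the RefSeq gene (chr1:16914085-16972964) and 78 nt past the end of RNU1-2, a U1 gene at chr1:16895980-16896143.

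A further 4 CROCC peaks lie inside U1 genes, 2 in RNU1-2 and 2 in RNU1-4 (chr1:16740516-16740679). Among them, only the one nearest the end of RNU1-2 was lower in every arsenite nucleus than in any mock nucleus. That one, chr1:16896094-16896114, had 6, 7 and 9 tags in mock nuclei and 3, 2 and 0 in arsenite nuclei, a log2 difference of -1.55 ± 0.34 (SE) without overlap. The RNU1-2 peak near the 5′ end, chr1:16895993-16896013, had 2, 2 and 6 mock and 10, 2 and 6 arsenite tags in nuclei. In RNU1-4, chr1:16740528-16740548 had 5, 3 and 5 mock and 3, 5 and 5 arsenite tags, and chr1:16740620-16740640 had 5, 4 and 6 mock and 5, 2 and 4 arsenite tags. These 3 overlapped between treatments, with log2 differences of 0.27, -0.27 and -0.57.

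The 4 peaks inside U1 genes together averaged 22.0 CPM in mock nuclei and 2.42 CPM in mock cytoplasm, 9.09-fold more in nuclei and without overlap. Singly, chr1:16740528-16740548, chr1:16740620-16740640 and chr1:16896094-16896114 had 13, 15 and 22 tags in mock nuclei and 1, 0 and 2 in mock cytoplasm. The peak chr1:16895993-16896013 was 2.56-fold stronger in nuclei with overlap. After arsenite the 4 together were 2.98-fold stronger in nuclei, still without overlap. The leading CROCC peak was 3.61-fold stronger in mock nuclei than in mock cytoplasm, also without overlap. The peaks of the LINC00910 pair were 1.23-fold and 1.77-fold stronger in mock cytoplasm than in mock nuclei, and the libraries overlapped. This contrast uses the nuclear libraries that chose the genes and was not tested. The U1 peaks summed to 7 mock and 19 arsenite tags in cytoplasm. The strongest of them there, chr1:16740528-16740548, had 0, 0 and 1 mock and 5, 3 and 2 arsenite tags, too few in mock for a test to be read.

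**Figure D2:**
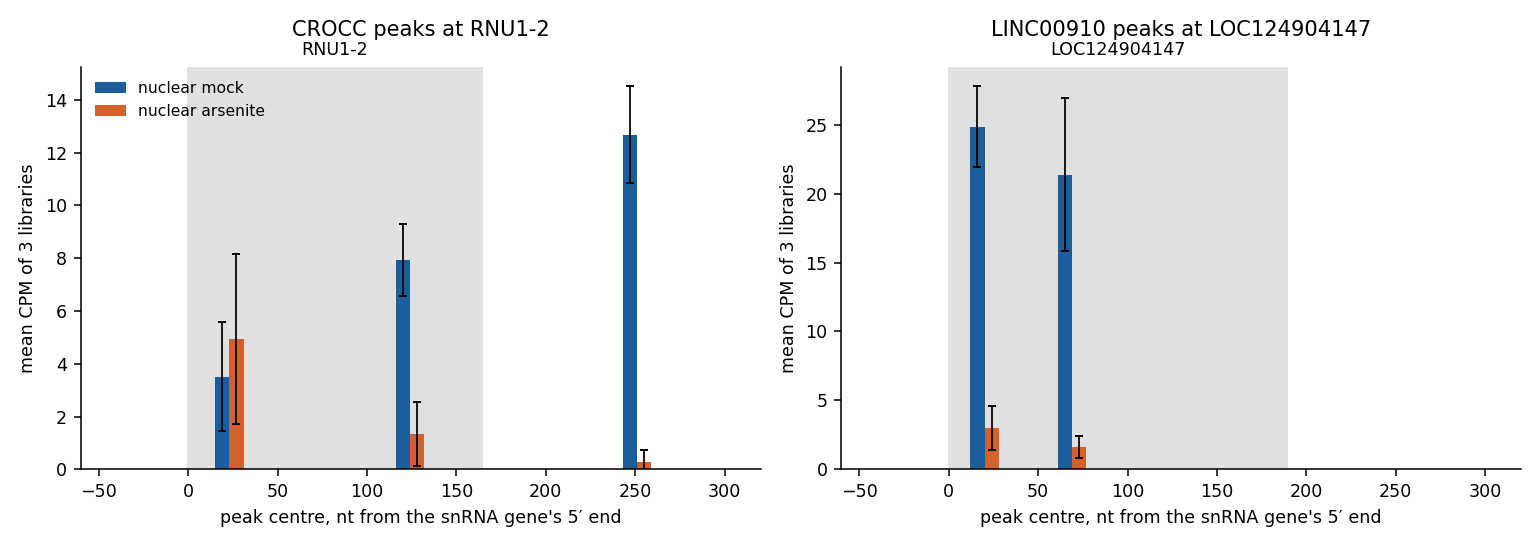
Mean HuR signal in mock and arsenite nuclei (CPM, error bars SD of 3 libraries) at CROCC peaks around RNU1-2 and LINC00910 peaks in LOC124904147, by distance of the peak centre from the 5′ end of the snRNA gene, shaded. The peak past the end of RNU1-2 and both LOC124904147 peaks are near 0 after arsenite, whereas the peak near the 5′ end of RNU1-2 is not lower.

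The remaining 7 CROCC peaks held 1 to 14 fraction tags each. They summed to 11 mock and 8 arsenite tags in nuclei and to 13 and 6 in cytoplasm. The strongest, chr1:16905314-16905334, had 1, 2 and 5 mock and 1, 0 and 0 arsenite tags in nuclei, and 3, 1 and 1 mock against 0, 0 and 0 arsenite tags in cytoplasm. Inside RefSeq CROCC, chr1:16918315-16918335 had 0 mock tags and 1, 1 and 2 arsenite tags in cytoplasm. With 1 group at 0, these met the filter only through the other group, and no test is given for them. Signal over the annotated body of CROCC was thus close to the limit of detection.

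**Figure D3:**
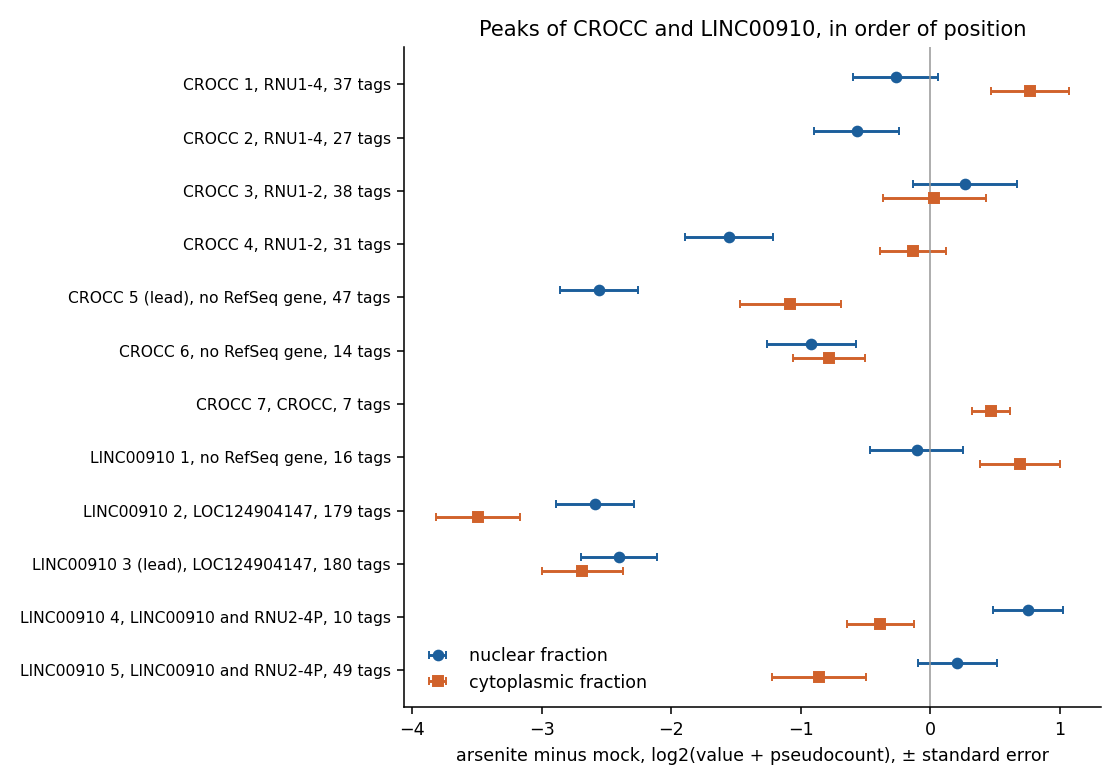
Log2 difference, arsenite minus mock, of each tested LINC00910 and CROCC peak in nuclei and in cytoplasm, with bars of 1 SE. The 3 lowest nuclear values, -2.59, -2.56 and -2.40, belong to the LOC124904147 pair and the peak past RNU1-2, and only the LOC124904147 pair is similarly low in cytoplasm.

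Summed over all peaks of a name, LINC00910 averaged 51.3 ± 6.49 CPM (SD, n = 3) in mock and 11.4 ± 3.15 CPM in arsenite nuclei. CROCC averaged 38.3 ± 7.97 and 15.4 ± 4.51 CPM. Neither overlapped between treatments. The log2 differences were -1.99 ± 0.22 (SE) for LINC00910 and -1.21 ± 0.23 for CROCC, against a median of 0.04 over all 10799 genes tested, of which 2.28% passed as lower and 5.57% as higher. Those shares are background only, since the nuclear sums chose the 2 genes. With its strongest peak left out, the LINC00910 sum differed by -1.44 ± 0.25 (SE), mainly through the second peak of the pair (58 mock and 6 arsenite tags), and the CROCC sum by -0.70 ± 0.26.

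The cytoplasmic sums were not used in that choice. LINC00910 went from 76.1 ± 22.1 to 8.05 ± 3.04 CPM (SD, n = 3 each), and every arsenite library lay below every mock library. It fell by 2.92 ± 0.26 (SE) on the log2 scale with a limma adjusted p of 1.38e-06, in a comparison where 9.91% of 11308 genes passed as lower and 10.2% as higher. LINC00910 kept that call whichever of the 6 cytoplasmic libraries was left out, with a highest adjusted p of 0.0136 by limma. CROCC had 10.5 ± 4.92 and 5.83 ± 1.99 CPM, a difference of -0.61 ± 0.34 (SE) that did not pass (limma adjusted p = 0.235).

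The input libraries gave a further look at the same peaks, in cells that had gone through the APEX reaction. In the library set labelled JL0388, which holds 1 mock and 1 arsenite input per line, the 2 leading LINC00910 peaks together had 11 tags in NLS, 14 in NES and 9 in G3BP mock inputs. The arsenite inputs of that set had 5, 1 and 2 tags. The CROCC peak past RNU1-2 had 8, 6 and 6 tags in the mock and 1, 0 and 0 in the arsenite inputs. In each of the 3 lines the mock input was thus higher than the arsenite input, for both sites.

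The other input sets held few tags at these sites. In JL1024 the LINC00910 pair had 3 mock and 2 arsenite tags in all and the CROCC peak 2 and 0, and in JL0361, which holds G3BP only, they had 3 and 0 and no tag at all. In CPM the pair had 13.01 in JL0361 and 1.08 in JL1024 mock inputs, against 10.6 in JL0388, so JL0361 was low in tags and not in level. Over all 17 inputs the LINC00910 pair had 40 mock and 10 arsenite tags, 5.12-fold lower in CPM (95% interval 2.51 to 11.5), and the CROCC peak 22 and 1, a ratio of 28.1 (4.55 to 1161). The CROCC peaks inside U1 genes had 259 and 210 input tags, a ratio of 0.634 (0.526 to 0.763). By set that ratio was 1.15 in JL0388 (0.753 to 1.75), 0.906 in JL1024 (0.729 to 1.12) and 0.272 in JL0361 (0.0805 to 1.17). Each set's own interval thus included 1. The intervals over all inputs cover counting error only and leave out the spread between sets and libraries, which differed in depth.

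No LINC00910 or CROCC result passed in the test over all inputs, in which 0% of 17091 peaks and 0% of 7458 genes passed limma at an adjusted 0.05, in either direction. Without adjustment 1441 peaks and 568 genes lay under 0.05, and edgeR called 0 peaks, 210 genes as higher and 89 as lower. The LINC00910 sum differed by -1.30 ± 0.55 (SE; limma adjusted p = 0.644), and edgeR called it lower (-1.14, adjusted p = 0.0221). Its 2 leading peaks differed by -0.70 ± 0.33 and -0.74 ± 0.29 (SE; limma adjusted p = 0.576 for each), and the CROCC sum by -1.17 ± 0.69 (adjusted p = 0.664). Within JL0388 alone, the LINC00910 sum was called lower by limma (-1.62 ± 0.38 SE, adjusted p = 0.00932), among 239 genes called higher and 23 lower. The CROCC peak past RNU1-2 had tags in too few libraries for the test over all inputs, and without the filter it differed by -0.72 ± 0.27 (SE; limma adjusted p = 0.614). In JL0388 alone its limma value was -1.87 ± 0.43 (SE, adjusted p = 0.0330), but with 1 arsenite tag it could not have entered that test without its mock libraries, so its tags are the measurement to read there. In JL1024 the LINC00910 sum had 38 mock and 36 arsenite tags.

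**Figure D4:**
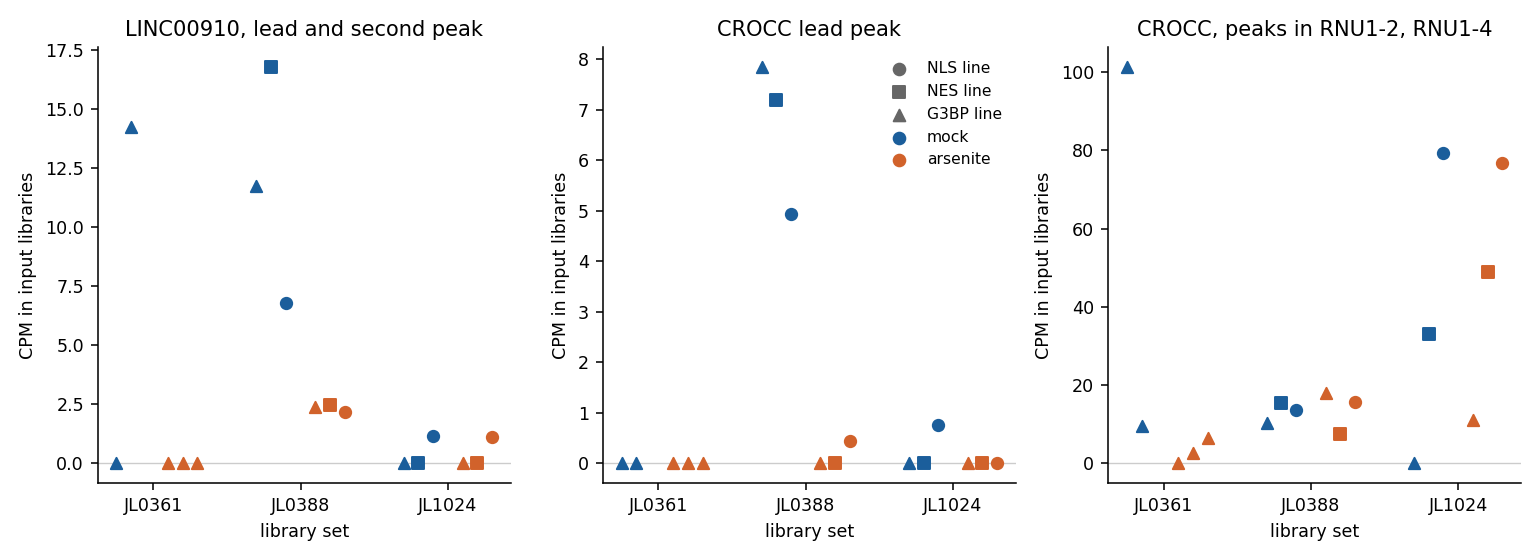
HuR signal in each input library (y axis, CPM) for the LINC00910 pair, the CROCC peak past RNU1-2 and the CROCC peaks inside U1 genes, by library set, with colours for treatment and symbols for the line. In the first 2 panels the JL0388 mock inputs lie above the arsenite inputs of that set. In the LINC00910 panel 1 JL0361 mock library (14.2 CPM from 3 tags) also stands high, while the U1 panel has high and low libraries of both treatments.

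Few tags were seen at the leading sites after capture on streptavidin. The LINC00910 pair had 2 mock and 0 arsenite tags in NLS, 1 and 1 in NES and 1 and 1 in G3BP enriched libraries. The CROCC peak had 1 and 1 tags in NLS and none in NES or G3BP. With so few tags no difference between treatments could be seen, and 3 tags are at least 3.18 CPM in each of these libraries. Depth is not the whole reason. The LINC00910 pair pooled to 1.48 CPM (95% interval 0.179 to 5.33) in NLS mock enriched libraries, against 45.0 CPM in mock nuclei. The cause of that gap was not tested. The CROCC peaks inside U1 genes had 70 mock and 48 arsenite tags in NLS (51.6 and 41.2 CPM pooled) and 7 and 7 in G3BP (4.81 and 4.85 CPM). In NES they had 4 and 36 tags from libraries of unequal depth, which is 12.99 and 30.98 CPM, a ratio of 2.39 whose 95% interval (0.855 to 9.23) includes 1.

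CROCC was higher in NLS than in NES enriched libraries, by 1.36 ± 0.53 on the log2 scale (SE; limma adjusted p = 0.0374). This was near the median of all 2927 genes tested, 1.08, and 34.6% of them passed as higher in NLS and 0.478% as lower. LINC00910 differed by -0.02 ± 0.66 (SE; limma adjusted p = 0.978). The CROCC call was lost with edgeR (0.46, adjusted p = 0.513), on scaling to tags in peaks (0.67, limma adjusted p = 0.405) and on leaving out any of 6 of the 16 libraries, among them each NLS mock library (limma adjusted p up to 0.132) and NES mock replicates 2 and 4 (0.167 and 0.0585).

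Neither name passed limma at an adjusted 0.05 between arsenite and mock over all captured libraries of a line. In NLS the CROCC sum differed by -0.53 ± 0.32 (SE; limma adjusted p = 0.758) and the LINC00910 sum by -0.96 ± 0.70 (0.799), and 0% of 4490 genes passed in either direction. In NES they differed by 1.87 ± 0.85 (SE; limma adjusted p = 0.849) and 0.92 ± 1.04 (0.874), with 0% of 1775 genes passing. In G3BP the CROCC sum differed by 1.17 ± 0.96 (SE; limma adjusted p = 0.584) with 0% of 2798 genes passing. It rests on 8 mock and 7 arsenite tags (pooled arsenite over mock 0.883, 95% interval 0.272 to 2.79), and its direction was not settled: it was -0.31 with edgeR, -1.91 in JL1024 alone and 3.75 in JL0388 alone, where limma called it (adjusted p = 0.00930) beside 966 of 2158 genes called higher. Neither JL0388 mock library held a CROCC tag, so that call is against 0 and CROCC entered the test only through arsenite libraries. LINC00910 had tags in too few G3BP libraries to be tested. At an unadjusted 0.05 there were 306 genes in NLS, 97 in NES and 317 in G3BP, and edgeR called 4 genes higher and 22 lower in NLS and 0 in NES and G3BP. Of the 32 replicate pairs in the series, 5 did not differ detectably beyond sampling noise, all of them enriched libraries of JL0388, and counting each such pair as 1 sample gave no call for either name here.

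Across the 16 groups, pooled LINC00910 signal was highest in mock cytoplasm (76.3 CPM, 95% interval 66.5 to 87.1) and mock nuclei (50.3, 42.4 to 59.3). NES and G3BP mock inputs came next at 17.8 and 17.7 CPM, with overlapping intervals, then NLS mock inputs at 12.3 and arsenite nuclei at 11.5. The lowest were NES and G3BP arsenite inputs at 1.90 and 1.50 CPM, from 1 and 5 tags. Mock cytoplasm and mock nuclei overlapped by library, and from NES mock inputs downward neighbouring groups had overlapping intervals. For CROCC the order was led by NLS libraries: mock inputs at 59.6 CPM (52.5 to 67.5), mock enriched at 56.8, arsenite inputs at 43.4 and arsenite enriched at 43.0, followed by mock nuclei at 37.6 CPM. Each group's interval overlapped that of its neighbour in this order. G3BP enriched libraries were lowest at 5.50 and 4.85 CPM, from 8 and 7 tags. These intervals cover counting error only, and the NLS mock inputs alone ranged from 24.1 to 81.6 CPM between the 2 libraries.

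The positions of these peaks led to other snRNA genes. The split into peaks inside a RefSeq snRNA gene and peaks up to 250 nt past its end was made after the CROCC and LINC00910 values were seen, so it is a description. LINC00910 and CROCC peaks are left out of these counts. Among named U1, U2, U4, U5, U11 and U12 genes, 14 peaks at 13 genes lay past the end. Together they had 29.9 to 40.9 CPM in the 3 mock nuclei and 3.47 to 4.80 CPM in the 3 arsenite nuclei (100 and 15 tags). In cytoplasm they had 31.9, 36.7 and 35.9 CPM in mock and 2.89, 2.84 and 1.39 CPM in arsenite libraries (100 and 11 tags). Of the 14, 12 were lower in arsenite nuclei and 13 in arsenite cytoplasm. The median log2 difference over all tested peaks was 0.01 in nuclei and 0.08 in cytoplasm. Many of the 14 hold few tags, so these counts are a description and no test. Over all inputs they had 92 mock and 7 arsenite tags.

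The strongest downstream peaks had most of their tags in mock libraries, as the one past RNU1-2 did. A peak 98 nt past RNU11, the U11 snRNA of the minor spliceosome, had 8, 10 and 6 tags in mock and 1, 1 and 0 in arsenite nuclei. In cytoplasm it had 2, 14 and 8 mock and 1, 1 and 0 arsenite tags. A peak 16 nt past RNVU1-8, a variant U1 gene, had 15, 12 and 11 tags in mock and 1, 0 and 0 in arsenite cytoplasm. A peak 145 nt past RNU5D-1, a U5 gene, had 10 mock and 0 arsenite tags in cytoplasm, and one 65 nt past RNU5A-1 had 12 and 0 in nuclei. These peaks met the filter only through their mock libraries and were named after their values were seen, so no test is given for them.

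Peaks inside the same kinds of gene differed among themselves. There were 42 at 28 genes, summing to 367 ± 43.8 CPM in mock and 237 ± 38.1 CPM in arsenite nuclei (SD, n = 3). Of these, 27 were lower and the rest equal or higher in arsenite nuclei, and 2 of 33 tested were called lower and 0 higher by limma, against 0.034% and 0.152% of all 200232 tested peaks. The called ones were RNU5B-1, a U5 gene (80, 216 and 135 mock and 49, 24 and 36 arsenite tags, -2.24 ± 0.25 SE, limma adjusted p = 0.00347), and RNU4-2, a U4 gene (26, 31 and 24 against 5, 6 and 7 tags, -2.13 ± 0.27, 0.00836). Those 2 carried the drop of the sum: the other 40 averaged 189 ± 19.5 CPM in mock and 202 ± 28.5 in arsenite nuclei (SD, n = 3), which overlap. In cytoplasm inside peaks summed to 80.1 ± 11.8 and 68.6 ± 23.2 CPM, and 0 of 22 tested passed. A separate run of 12 unnamed snRNA genes beside RNU2-1 had 410 ± 84.0 CPM in mock and 611 ± 76.6 in arsenite nuclei. All 12 of its peaks were higher there, with 0 called. They held 79 to 118 mock tags each, and whether they are distinct sources of tags was not tested.

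**Figure D5:**
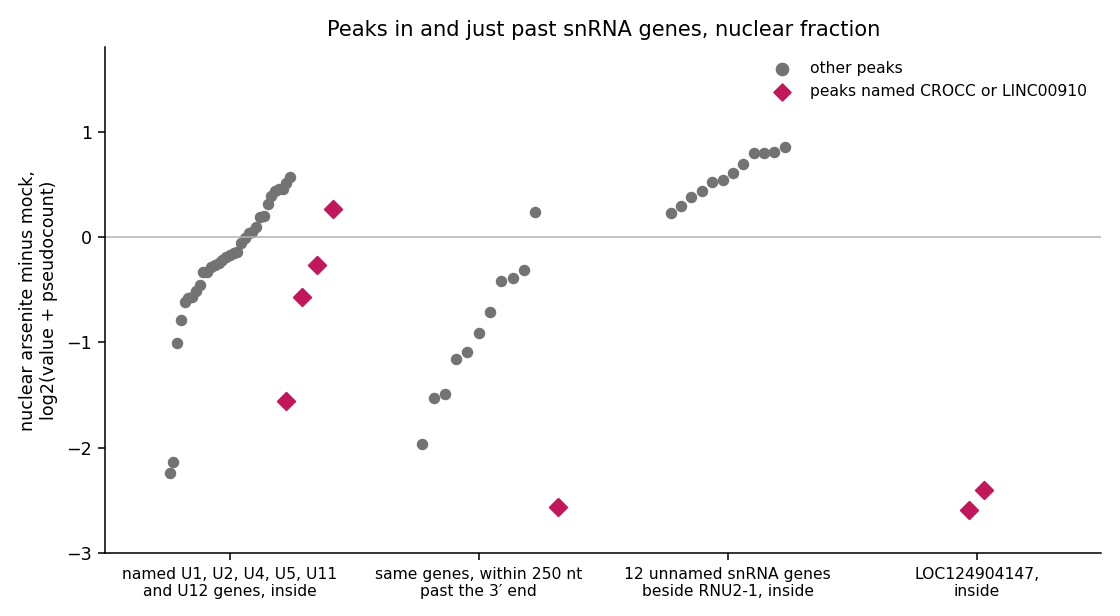
Nuclear log2 difference, arsenite minus mock, of tested peaks inside snRNA genes, past their 3′ ends and in the 12 genes beside RNU2-1, next to the LINC00910 and CROCC peaks; each point is 1 peak. Points past the 3′ end lie mostly below 0, points inside spread around 0, and those beside RNU2-1 lie above 0. Points past the 3′ end entered mainly through mock libraries and are a description.

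Position alone did not separate the peaks. The LINC00910 pair lies inside LOC124904147 and was low after arsenite, at 4.65 CPM pooled in nuclei, and so was the CROCC peak chr1:16896094-16896114 inside RNU1-2 (7.93 CPM in mock and 1.33 in arsenite nuclei). The 19 peaks inside other unnamed, U6 or U7 snRNA genes, the class of LOC124904147 without the pair, summed to 40.3 ± 10.1 and 36.3 ± 7.62 CPM in nuclei (SD, n = 3), which overlap. In cytoplasm they summed to 28.6 ± 0.94 and 10.4 ± 1.68 CPM without overlap, and 0 of 14 tested passed limma. The peak past RNU1-2 had 0.27 CPM from 1 tag in arsenite nuclei. The nearest other peaks gave no further signal: within 5 kb of the LINC00910 pair there was only 1, on the plus strand, with 6 fraction tags. Around the CROCC peak the table has the 2 RNU1-2 peaks and a minus-strand peak with 3 mock and 3 arsenite nuclear tags.

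Among genes that make and assemble snRNAs, few passed. The list holds 31 genes (Integrator, SNAPc and SMN complex members, snRNP proteins, the nuclease CPSF3, the export adaptor PHAX and coilin), 30 of them in the table. In nuclei 1 of 29 passed as higher and 1 as lower, against 5.57% and 2.28% of all genes: INTS6, an Integrator subunit, rose by 0.55 ± 0.12 (SE; limma adjusted p = 0.00729), and SNRPA1, a U2 snRNP protein, fell by 1.63 ± 0.32 (0.00248). In cytoplasm 3 of 30 rose, COIL (coilin, of the Cajal body), INTS6 and SNRPA (a U1 snRNP protein), and 0 fell, against 10.2% and 9.91% of all genes. SNRPA had no tag in mock cytoplasm and 3.21 CPM after arsenite, so its call is against 0. The list's medians were -0.17 and 0.03, against 0.04 and 0.06 over all genes. None of 18 tested in the inputs passed by limma.

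Of 9 centrosome linker and rootlet genes, 7 were in the table and 0 of 6 passed in nuclei. In cytoplasm CNTLN, a centriolar linker protein, rose by 0.71 ± 0.18 (SE; limma adjusted p = 0.00969), 1 of 7 where 10.2% of all genes passed as higher. Of 4 near-copies of CROCC, 2 were in the table. CROCCP2 averaged 4.80 CPM in mock and 2.16 in arsenite nuclei (-0.56 ± 0.41 SE, limma adjusted p = 0.484) and differed by -0.02 in cytoplasm. CROCCP3 averaged 4.58 and 1.89 CPM in nuclei (-0.74 ± 0.35 SE, limma adjusted p = 0.227) and differed by 0.83 in cytoplasm (0.118). Neither passed, and at these low levels a fold like that of the CROCC sum cannot be told from none.

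Among 7 nuclear long noncoding RNAs, NEAT1, the scaffold of paraspeckles, and TUG1 rose in nuclei by 0.37 ± 0.10 and 1.33 ± 0.17 (SE; limma adjusted p = 0.0272 and 3.23e-05), and 0 of 6 tested fell, against 5.57% and 2.28% of all genes. In cytoplasm 3 of 7, FTX, KCNQ1OT1 and NEAT1, rose, against 10.2%. Of 213 gene names of U snRNAs in the table, 91 were tested in nuclei, with 2 higher (the U2 pseudogenes RNU2-36P and RNU2-64P) and 3 lower (RNU4-2, RNU5B-1 and RNU5E-4P), against 5.57% and 2.28% of all genes. In cytoplasm 1 of 64 was higher and 11 were lower, 10 of them U6 genes or pseudogenes, which RNA polymerase III transcribes, against 10.2% and 9.91% of all genes. None of those 11 had a tag in all 3 arsenite libraries (5 had no tag there), so all 11 could not have met the filter without their mock libraries and the count is no support for a fall. The medians were -0.03 and -0.33, and 0 of 48 passed in the inputs.

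Over the 12 fraction libraries, the genes whose summed signal most resembled LINC00910 among 5382 with at least 100 tags were EPHA2 (Pearson r = 0.955), MIR122HG (0.941), CCL20 (0.937), H2AC6 (0.929) and RTN3 (0.927). EPHA2, a receptor tyrosine kinase, averaged 31.2 and 14.7 CPM in mock and arsenite nuclei and 48.0 and 9.45 in cytoplasm. MIR122HG, the host gene of the liver microRNA miR-122, averaged 73.5 and 28.1 CPM in nuclei and 84.0 and 33.7 in cytoplasm. CCL20, a chemokine, went from 17.4 to 3.56 CPM in nuclei and from 24.1 to 3.70 in cytoplasm.

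For CROCC the most alike were DDX39B (r = 0.959), HSPA8 (0.938), SNORD52 (0.938), SNHG6 (0.930) and SNORD104 (0.925). DDX39B, a helicase of mRNA export, averaged 150 and 88.7 CPM in mock and arsenite nuclei and 54.1 and 36.4 in cytoplasm. SNORD52, a small nucleolar RNA, averaged 28.6 and 9.87 CPM in nuclei and 2.44 and 0.24 in cytoplasm. All points share libraries and depth, and the pattern compared includes the nuclear difference that chose the 2 genes, so these correlations are descriptions.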

How the data were processed

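HuR CLIP-seq signal was read from 1 table in which, per the file headers, each column is 1 of 58 libraries and each row a peak. The deposited values are a signal: whole tags divided by a library total, a reading taken from the values (100% came out whole within a tolerance of 0.05 tags). The submitters' processing notes name Bowtie2, SAMtools, bedtools, HOMER and GRCh38.p14 without roles, and treatment of duplicate reads and of reads with several matches is not given in the sources used here. Of 395471 lines, 8257 repeats were dropped, leaving 387214 peaks of 20 nt.

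Samples were grouped by title. Peaks and sums per gene name were tested with limma 3.58.1 (trend, R 4.3.3) on log2(value + 2.283806e-06), with a filter (a value above 0 in no fewer libraries than the smaller group has), within a contrast's own groups and with the library set (and line or treatment) as covariate where several entered. Benjamini-Hochberg adjustment over all features was used at 0.05. edgeR 4.0.16 (quasi-likelihood, TMM) on the whole tags was an alternative. In cytoplasm edgeR called 1090 peaks higher and 657 lower, and 1288 and 1217 genes; limma called 465 and 1008, and 1150 and 1121. Both were tested on simulated data. Ratios of pooled tags have exact conditional 95% intervals. Tables and intervals were computed with pandas 2.3.3, scipy 1.17.1 and numpy 2.4.6 under Python 3.11.15, and plots with matplotlib 3.10.9.

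The members and gene lists were chosen with earlier results of these data known. Values are given for every member peak with at least 20 fraction tags, others being summarised, and the 5 genes of highest Pearson r per gene are named. Called members of the lists are named, and peaks at RNU11, RNVU1-8, RNU5A-1, RNU5D-1, chr1:16905314-16905334 and chr1:16918315-16918335 were named after their values were seen. RefSeq spans come from its GRCh38.p14 table, which gives no strand here, so the strand of the peaks was used. The p-values measure only the spread between these libraries, which may be technical. Depth is given in the results.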

Additional observations from a re-analysis of the deposited data

Results flagged for a closer look

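In 8 groups of 4 to 7 libraries, the summed signal of each of the 2 gene names was examined with Dixon's test. Of these 16 sums, 5, in 4 groups, held a library that stood apart. Each was the highest of its group, and 4 of the 5 rest on 1 to 3 tags. The nominal rate of the test, about 1 in 20, assumes values of equal precision. Depth was unequal within these groups, so the count cannot be set against chance. For LINC00910, G3BP enriched arsenite replicate 4 had 22.55 CPM from 2 tags, next to 1.65 CPM in the second highest. G3BP enriched mock replicate 3 had 67.75 CPM from 1 tag, next to 5.98 CPM. G3BP input arsenite replicate 4 had 3.618 CPM from 3 tags, next to 0.90 CPM. For CROCC, G3BP enriched arsenite replicate 1 had 152.1 CPM from 2 tags, next to 35.6 CPM, and NLS enriched mock replicate 2 had 123 CPM from 18 tags, next to 59.1 CPM.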

How the results depend on the processing

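Of 340 alternative values for 20 results, 305 kept direction and side of the threshold. The LINC00910 fall in cytoplasm kept its call under every alternative run (-3.18 to -2.70 with 1 library left out). Leaving out 1 library gave -2.97 to -2.54 for its leading cytoplasmic peak and -3.76 to -3.28 for the second, each called in 4 of 6. Quadrupling the pseudocount moved the nuclear LINC00910 difference to -1.56, and to -1.02 without the lead peak. In the inputs, LINC00910 was called with edgeR (-1.14) and in JL0388 alone (-1.62). CROCC in NLS against NES lost its call with a pseudocount 4 times smaller (1.65), no filter (1.36), scaling to tags in peaks (0.67), edgeR (0.46), JL0388 alone (1.66), JL1024 alone (1.06) and pairs within noise counted once (1.40), and with 1 library left out ranged from 0.84 to 1.56, called in 10 of 16. CROCC in G3BP enriched libraries was -0.31 with edgeR, -1.91 in JL1024 alone and 3.75 in JL0388 alone, where it was called (limma adjusted p = 0.00930) beside 966 of 2158 genes called higher. The JL0388 mock libraries of that contrast held no CROCC tag, so the call could not have been made without its arsenite libraries. LINC00910 in NLS against NES turned to 0.0070 with the smaller pseudocount, 0.10 with edgeR, 1.27 in JL1024 alone and 0.41 with pairs counted once, and ranged from -0.37 to 0.35 with 1 library left out. In NLS enriched libraries LINC00910 turned to 0.29 in JL1024 alone. The causes were not tested.

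Counts of calls moved too: in cytoplasm, peaks called higher and lower were 5162 and 1600 with the smaller pseudocount and 1090 and 657 with edgeR, against 465 and 1008. In nuclei they were 129 and 21, and 98 and 3, against 304 and 68. Genes called between NLS and NES ranged from 242 to 1125 higher and from 1 to 33 lower, against 1014 and 14. With a set on its own, calls went from 0 to 966 higher and 9 lower genes in G3BP of JL0388, 501 and 1 in NES of JL1024 and 239 and 23 (51 and 9 peaks) in the JL0388 inputs, and in NLS edgeR gave 4 and 22. edgeR on nuclear sums, added after seeing the data, gave -2.14 for LINC00910 and -1.30 for CROCC. The replicate block changed no call (LINC00910 in cytoplasm -2.92, CROCC in NLS against NES 1.36), but moved the cytoplasmic peak calls to 828 and 1519. Same-numbered libraries correlated at -0.0169 to 0.0965, apart from 2 pairs of G3BP inputs at 0.117 to 0.140, so they share only a number. The CROCC lead peak in inputs and LINC00910 in G3BP enriched libraries were not tested in the reported setting, as too few libraries held a tag. The former was -0.72 without the filter and -1.87 in JL0388 alone, where it could not have entered the test without its mock libraries. The latter differed by -1.40 to -0.57 where a value could be had, with no call. Depth limits the enriched libraries most: 3 tags are 3.18 to 644 CPM there.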
